A study of Mus musculus with 10 samples.

Results

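Transcripts of 33 enzymes of glycolysis, gluconeogenesis and fructose metabolism were examined in obstructed mouse kidneys treated with dimethyl malonate (DMM) or PBS. The members were taken by gene symbol from a list of enzymes. All 33 symbols were found, in 34 of the 54532 gene rows deposited, because Aldoa stands under 2 Ensembl identifiers. DMM is a malonate ester used as an inhibitor of succinate dehydrogenase, the enzyme that oxidizes succinate in the mitochondria. The left ureter of wild-type male C57BL/6 mice was tied at 8 weeks (unilateral ureteral obstruction, UUO), and the obstructed kidney was taken 14 days after the ligation. The DMM group received 40 mg/kg by intraperitoneal injection every other day, and the control group received PBS. Bulk RNA-seq was done with a single library per mouse, from 5 PBS and 5 DMM mice. Every kidney was obstructed, so that no unobstructed kidney stood beside them. The question was how the enzymes that break down and make glucose differed between DMM and PBS kidneys.

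Glycolysis converts glucose to pyruvate and yields ATP without oxygen, and lactate dehydrogenase converts pyruvate to lactate. Gluconeogenesis runs in the opposite direction and shares most of these enzymes, but bypasses the irreversible steps with its own, among them the phosphatases fructose bisphosphatase and glucose-6-phosphatase. In the kidney the proximal tubule makes glucose and takes up fructose, whereas distal segments, interstitial cells and activated leukocytes rely more on glycolysis. Many steps are carried out by several isozymes from separate genes, each with its own tissue range.

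Total counts ranged from 16457495 to 18078777 in PBS libraries (median 17825223) and from 15722527 to 19475833 in DMM libraries (median 16794390). Levels are given as CPM, counts divided by the library total and scaled between libraries by TMM, which sets the typical gene equal in all of them. Of the 10 libraries, 3 stood apart. In the group means deposited by the authors, PBS replicate 3 and DMM replicate 1 carried a weight of 0, so that these means rest on the other 8 libraries. The reason was not given. Labels were kept as deposited, and whether those of these 2 libraries were exchanged was not tested. DMM replicate 4 had counts on 20029 genes, against 22898 to 24083 in the others, and a TMM factor of 0.852, against 0.981 to 1.05. Fold changes were fitted over all 10 libraries and over the 8 libraries of the deposited means, which are a subset of the 10 and not a separate experiment.

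Summed markers of the proximal tubule also differed between libraries. The 12 markers summed to 4660, 4727, 11514, 1951 and 3613 CPM in PBS replicates 1 to 5. In DMM replicates 1 to 5 they summed to 3598, 9370, 8545, 7053 and 11931 CPM. PBS replicate 3 thus lay with the high DMM libraries and DMM replicate 1 with the low PBS libraries, whereas among the other 8 libraries every DMM sum lay above every PBS sum. Taken singly, 7 of the 12 markers (58.3%) had every DMM kidney above every PBS kidney over the 8 libraries, beside 9.46% of all genes. For the other 5, Slc34a1, Slc27a2, Miox, Kap and Aqp1, DMM replicate 4 lay within the PBS range, and its sum held 2499 CPM of Lrp2. For Kap, DMM replicate 3 (1812 CPM) also lay just below PBS replicate 1 (1819 CPM). The p-values over the 8 libraries take the choice of libraries as given and do not account for it. Kap, an androgen-regulated protein of the proximal tubule, was the most abundant of these markers, and none was at 0 in any library. Transcripts of the labelled tissue were thus found in every library. In RNA from whole kidneys, fewer cells of a type and less RNA per cell cannot be told apart.

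Ldhb, the lactate dehydrogenase isozyme of oxidative tissues, was the most abundant member per kilobase of gene length and also in CPM. Levels per kilobase and shares between isozymes depend on the deposited gene length, whose source was not stated, and on how shared reads were counted. Its mean was 757 CPM per kb over the 10 libraries, with a range of 496 to 961. Aldoa, which splits fructose bisphosphate, followed at 200 CPM per kb and Ldha, the lactate dehydrogenase of glycolytic tissues, at 176, and the ranges of these 2 genes overlapped. Tpi1, Pgk1, Eno1, Pkm and Pgam1, which act between the triose phosphates and pyruvate, had means from 94.8 (Pgam1) to 135 CPM per kb (Tpi1). The ranges of these 2 genes, 81.7 to 106 and 110 to 167, did not overlap. Among the glucose-making enzymes, Fbp1 averaged 87.5 CPM per kb with a range of 18.2 to 202, and G6pc averaged 18.8 with a range of 2.16 to 42.7. Levels of Fbp1, G6pc and Khk thus varied more between libraries than those of the shared enzymes. Gapdh, the glyceraldehyde phosphate dehydrogenase, had only 1.14 CPM per kb, from 48 to 123 counts per library. As the counting settings were not given, this low value cannot be set against its neighbours in the pathway. Pfkfb1 had the lowest mean of all rows, at 0.539 CPM per kb.

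**Figure D1:**
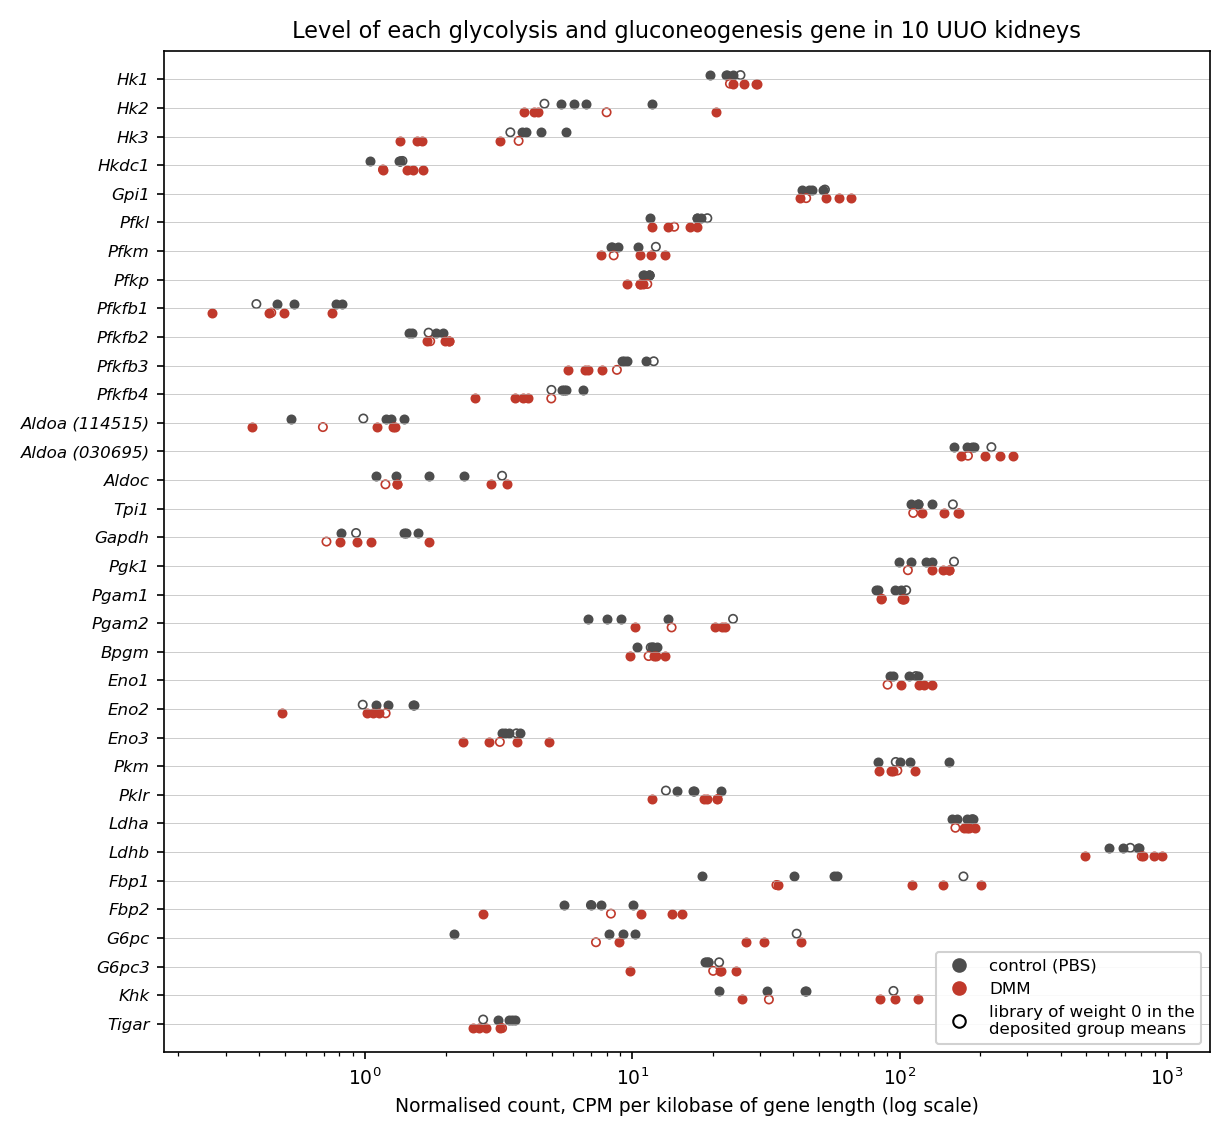
Level of each member in TMM-scaled CPM per kb of deposited gene length (log axis), with a dot for each library; open dots mark PBS replicate 3 and DMM replicate 1. Ldhb lies highest, and G6pc and Fbp1 spread most widely between libraries.

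Genes were called with edgeR at a Benjamini-Hochberg adjusted p under 0.05 over all tested genes and a fold change above 1.5. All 34 rows passed the filter on low counts in both fits. The p-values set the difference between the groups against the spread between mice within them. Over all 10 libraries, 0 of 34 rows were called, as were 0 of 16505 genes (0.0%). No gene had an adjusted p below 0.378. At an unadjusted p under 0.05, 0 rows were higher with DMM and 3 lower, namely Hk3, Pfkfb3 and Pfkfb4, beside 4.4% and 6.49% of all genes. Every DMM library lay above every PBS library in 0 rows, beside 0.794% of genes, and below in Pfkfb3 and Pfkfb4, beside 1.16%. The median log2 fold change of the 34 rows was 0.08, against 0.02 for all genes, with a range of -0.91 to 0.72. Of the rows, 31 (91.2%) lay within 1.5-fold, beside 88.2% of all genes. DESeq2 called 0 of these rows and 9 genes higher and 32 lower. Leaving out DMM replicate 1 gave 50 genes higher (0.298%) and 436 lower (2.6%), the latter with Hk3, Pfkfb3 and Pfkfb4 among them.

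Over the 8 libraries, Hk3 and Pfkfb4 fell with DMM, and 0 rows passed in the other direction. These were 2 of 34 rows (5.88%), beside 590 of 16550 genes called lower (3.56%) and 452 called higher (2.73%). Pfkfb3 also passed the adjusted p, as did 662 genes lower with DMM at any fold change (4.0%), but its change was below 1.5-fold. At an unadjusted p under 0.05, 7 rows were higher and 3 lower, against 10.8% of all genes in either direction. The 7 were Hk1, Tpi1, Pgk1, Pgam2, Fbp1, G6pc and Khk. The groups did not overlap in Pgk1, with DMM above (9.46% of all genes), and in Hk3, Pfkfb3 and Pfkfb4, with DMM below (10.6%). DESeq2 called 4 rows higher, Fbp1, G6pc, Khk and Pgam2, and the same 2 lower, beside 769 genes higher (4.65%) and 894 lower (5.4%). The median log2 fold change of the rows was 0.13, against 0.02 for all genes, and 28 rows lay within 1.5-fold, beside 79.6% of genes. With libraries scaled by their totals alone, the median of all genes moved by -0.11 and that of the rows was -0.01, or 0.08 above all genes against 0.11 with TMM. That scaling split the calls into 276 higher and 700 lower, 28.3% higher against 43.4% with TMM, and the members called lower were then Hk3, Pfkfb3 and Pfkfb4.

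These counts changed when a single library was left out, which also leaves fewer mice. Leaving out DMM replicate 4 raised them to 1129 genes higher (6.71%) and 1281 lower (7.61%), with 5 members higher, Fbp1, Fbp2, G6pc, Khk and Pgam2, and 3 lower, Hk2, Hk3 and Pfkfb3. Without DMM replicate 3 they were 186 and 308, and without DMM replicate 5 168 and 302. Without PBS replicate 1 they were 225 and 367, without PBS replicate 2 198 and 349, without PBS replicate 4 160 and 317, and without PBS replicate 5 131 and 276. Leaving out DMM replicate 2 gave 377 and 572. Without any 1 of these 7 libraries, edgeR called 0 members in either direction.

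**Figure D2:**
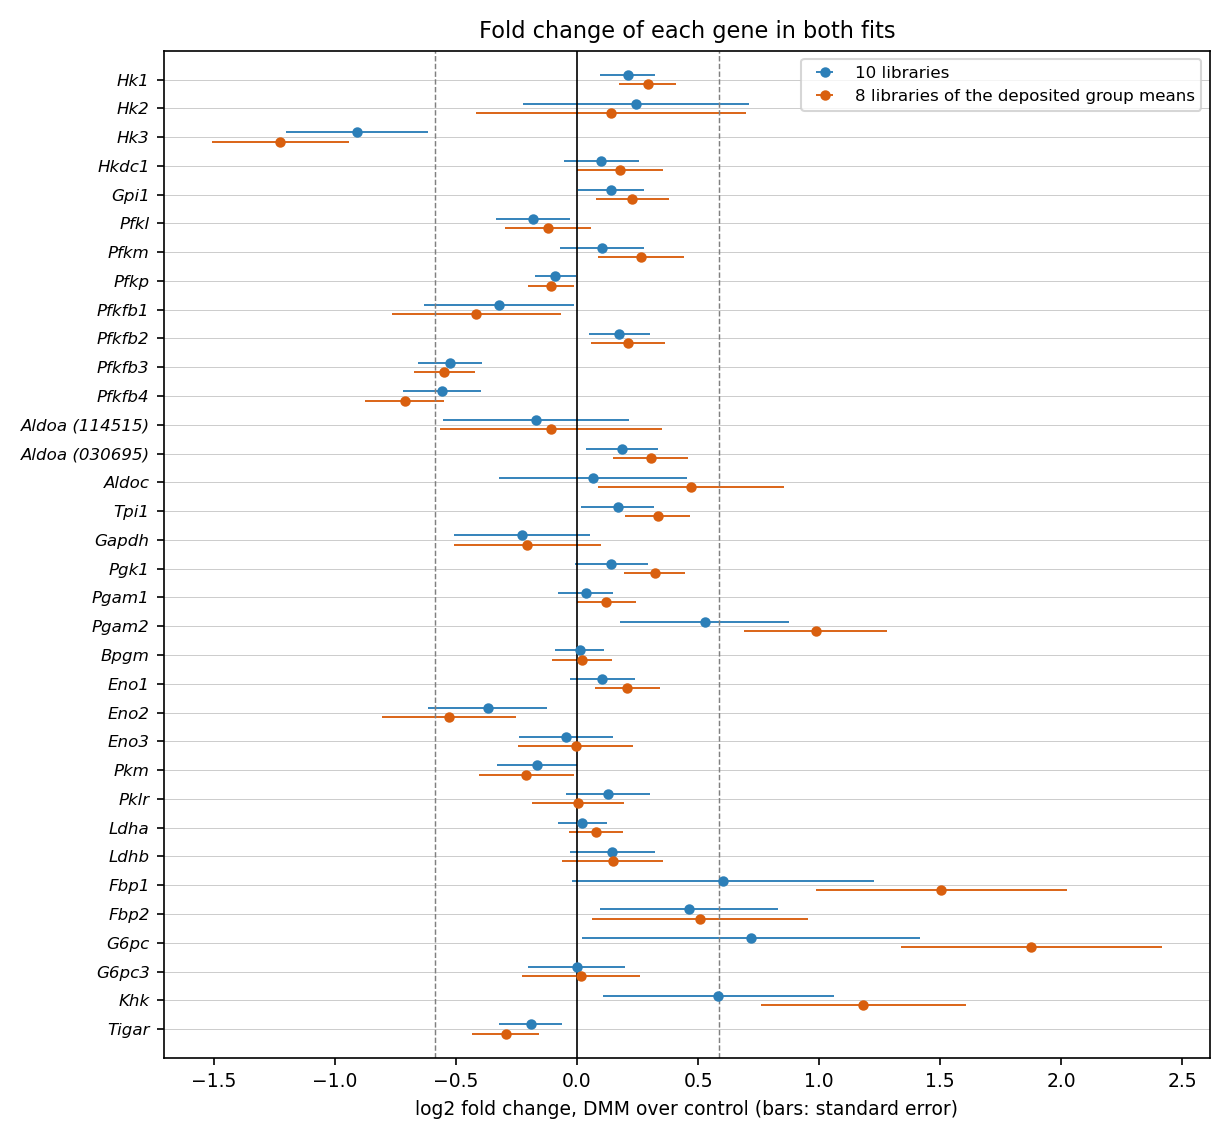
Log2 fold change of each member, DMM over PBS, with its standard error from edgeR, over all 10 libraries and over the 8 libraries of the deposited means; dashed lines mark a 1.5-fold change. Hk3 lies lowest in both fits (-0.91 and -1.22), and G6pc highest (0.72 and 1.88).

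Hexokinases phosphorylate glucose on entry to the cell. Hk3, the isozyme typical of myeloid cells, had 14.2, 14.8, 12.9, 20.8 and 16.8 CPM in PBS replicates 1 to 5 and 13.8, 5.98, 5.77, 11.8 and 4.98 CPM in DMM replicates 1 to 5. All DMM libraries but replicate 1 lay below every PBS library. The gene, at chr13:55005985-55021385 on the minus strand of mm10, fell by 1.22 on the log2 scale over the 8 libraries (SE 0.28, adjusted p = 0.0357 with edgeR), from 16.6 ± 2.97 to 7.12 ± 3.12 CPM (SD, n = 4 and 4), a 2.34-fold lower level. With all 10 libraries the log2 fold change was -0.91 (SE 0.29, adjusted p = 0.385 with edgeR). The call of the 8 libraries was lost when any of 7 libraries was left out. The adjusted p with edgeR was then 0.0678, 0.0758, 0.109 and 0.0989 without PBS replicates 1, 2, 4 and 5, and 0.0769, 0.105 and 0.0953 without DMM replicates 2, 3 and 5, with log2 fold changes of -1.30 to -1.09. Without DMM replicate 4 it held at -1.58 (adjusted p = 0.00037 with edgeR). The largest adjusted p of any setting was 0.153, with the replicate number as a factor in edgeR. As a share of the hexokinase transcripts per kilobase, Hk3 made up 12.8% ± 1.43 in PBS and 4.88% ± 0.880 in DMM kidneys over the 8 libraries (SD, n = 4 and 4). Over all 10 the shares were 12.2% ± 1.76 and 5.99% ± 2.58 (SD, n = 5 and 5), and DMM replicate 1, at 10.4%, lay above PBS replicate 3. Hk3 overlaps Unc5a on the opposite strand by 34 bases, and the log2 fold change of Unc5a was -0.57 (adjusted p = 0.100 with edgeR).

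Hk1, the ubiquitous isozyme, carried most hexokinase transcripts, 53.6% to 80.0% per library. Its levels were 193, 191, 216, 203 and 166 CPM in PBS and 198, 202, 250, 248 and 223 CPM in DMM replicates 1 to 5. The groups overlapped, with PBS replicate 3 in the range of the DMM kidneys, and the log2 fold change over the 8 libraries was 0.29 (SE 0.12, adjusted p = 0.190 with edgeR) and over all 10 it was 0.21 (SE 0.11, adjusted p = 0.513). Hk2, the insulin- and hypoxia-responsive isozyme, is described after its values were seen. It had 28.0 to 70.9 CPM in PBS and 23.4 to 47.8 CPM in DMM kidneys other than replicate 4, which had 122 CPM. Its log2 fold change was 0.24 over all 10 libraries, 0.14 over the 8 and -0.05 over the 8 with scaling by totals alone. Without DMM replicate 4 it was -0.84 and called lower (adjusted p = 0.0356 with edgeR), whereas the adjusted p was 0.745 to 0.999 without any other of the 8. With all 10 libraries but DMM replicate 4, it was -0.43 (adjusted p = 0.452 with edgeR). Hkdc1, a hexokinase-like enzyme, stayed between 5.35 and 8.44 CPM in every library.

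Glucose 6-phosphate is isomerized by Gpi1 and phosphorylated again by the phosphofructokinases, the main control point of glycolysis. Gpi1 had 304, 334, 339, 296 and 278 CPM in PBS and 288, 343, 423, 273 and 381 CPM in DMM replicates, with overlapping groups, and its log2 fold change was 0.23 over the 8 libraries (SE 0.15, adjusted p = 0.424 with edgeR) and 0.14 over all 10. With single libraries of the 8 left out it was 0.13 to 0.34, all below 1.5-fold, and the smallest adjusted p was 0.0215 with edgeR. Pfkl, the liver-type subunit and the most abundant per kilobase, had 116, 116, 127, 120 and 77.9 CPM in PBS and 95.7, 90.4, 117, 79.2 and 110 CPM in DMM replicates. PBS replicate 5 was the lowest of all 10, and the groups overlapped, with a log2 fold change of -0.12 (SE 0.18, adjusted p = 0.742 with edgeR) over the 8 libraries and -0.18 over all 10. For Pfkm, the muscle-type subunit, and Pfkp, the platelet-type subunit, log2 fold changes over the 8 libraries were 0.26 and -0.11, against 0.10 and -0.09 over all 10, and neither passed.

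Bifunctional PFKFB enzymes make and break fructose 2,6-bisphosphate, the activator of phosphofructokinase. Pfkfb3, the isozyme with the strongest kinase activity, had 70.1, 85.3, 90.8, 69.4 and 72.2 CPM in PBS and 66.1, 43.3, 50.3, 58.1 and 51.6 CPM in DMM replicates 1 to 5. Every DMM kidney lay below every PBS kidney, also with PBS replicate 3 and DMM replicate 1 included. The log2 fold change over all 10 libraries was -0.53 (SE 0.13, adjusted p = 0.378 with edgeR), from 77.6 ± 9.83 to 53.9 ± 8.63 CPM (SD, n = 5 and 5). For the 8 libraries it was -0.55 (SE 0.13, adjusted p = 0.0335 with edgeR), a 1.46-fold lower level, and the adjusted p lay between 0.00188 and 0.375 in the other settings. Pfkfb3 was called lower without DMM replicate 4, at -0.62 (adjusted p = 0.00191 with edgeR), and over 10 libraries without DMM replicate 1, at -0.61 (adjusted p = 0.0295).

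Pfkfb4, an isozyme with both activities, had 27.1, 26.6, 24.3, 27.5 and 31.9 CPM in PBS and 24.2, 18.9, 17.7, 12.5 and 19.8 CPM in DMM replicates 1 to 5. The groups did not overlap, although DMM replicate 1 and PBS replicate 3 were nearly equal. The gene fell by 0.71 on the log2 scale over the 8 libraries (SE 0.16, adjusted p = 0.0340 with edgeR), from 28.2 ± 2.46 to 17.3 ± 3.27 CPM (SD, n = 4 and 4), a 1.64-fold lower level. With all 10 the log2 fold change was -0.56 (SE 0.16, adjusted p = 0.378 with edgeR). No setting with 1 of the 8 libraries left out kept the call. The adjusted p with edgeR was 0.0809, 0.0844, 0.0958 and 0.120 without PBS replicates 1, 2, 4 and 5, and 0.0556, 0.0910 and 0.0642 without DMM replicates 2, 3 and 5. Without DMM replicate 4 it was 0.00215, but the log2 fold change was -0.58 and thus below 1.5-fold. With all genes that had a count tested, the adjusted p was 0.0561. Its largest value in any setting was 0.263, with the replicate number as a factor in edgeR. Pfkfb2, the heart isozyme, had 10.6 to 14.2 CPM in PBS and 12.4 to 14.9 CPM in DMM kidneys, and Pfkfb1, the liver isozyme, had 17 to 59 counts per library. Pfkfb2 made up 8.14% to 10.7% of PFKFB transcripts per kilobase in PBS and 11.0% to 17.2% in DMM kidneys. Its own CPM overlapped between the groups, and the share also moves with the levels of Pfkfb3 and Pfkfb4. Pfkfb2 overlaps Yod1 on the opposite strand by 7032 bases. Yod1 had a mean of 13.6 CPM over the 10 libraries, beside 13.1 for Pfkfb2. Its log2 fold change over the 8 libraries was 0.50 (adjusted p = 0.511 with edgeR). As the strand setting was not given, the part of Yod1 reads in the Pfkfb2 share cannot be told.

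Leukocyte markers were lower in the same libraries. The 12 markers summed to 1395, 1547, 1189, 1265 and 1531 CPM in PBS and 1398, 1023, 780, 787 and 792 CPM in DMM replicates 1 to 5. DMM replicate 1 lay within the PBS range, and the other DMM kidneys lay below every PBS kidney. Lyz2, the lysozyme of macrophages, was the most abundant. Of the 12, 2 were called lower over the 8 libraries, Cd4 and Cd68, with a median log2 fold change of -0.88, and over all 10 the number was 0 of 12 with a median of -0.61. At an unadjusted p under 0.05, 6 of the 12 were lower over all 10 libraries, and DESeq2 called 6 lower over the 8. Of all genes, edgeR called 2.73% higher and 3.56% lower over the 8 libraries, and DESeq2 4.65% and 5.4%, which are the shares to set beside each list below. The number of leukocyte markers called over the 8 was 1 without PBS replicate 2, 4 or 5 or DMM replicate 3 or 5, 4 without DMM replicate 2 and 5 without DMM replicate 4. With scaling by totals alone it was 4, and with all genes that had a count tested it was 3. With all 10 libraries but DMM replicate 1, 2 were called lower. Their part in the lower levels of Hk3, Pfkfb3 and Pfkfb4 was not tested.

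**Figure D3:**
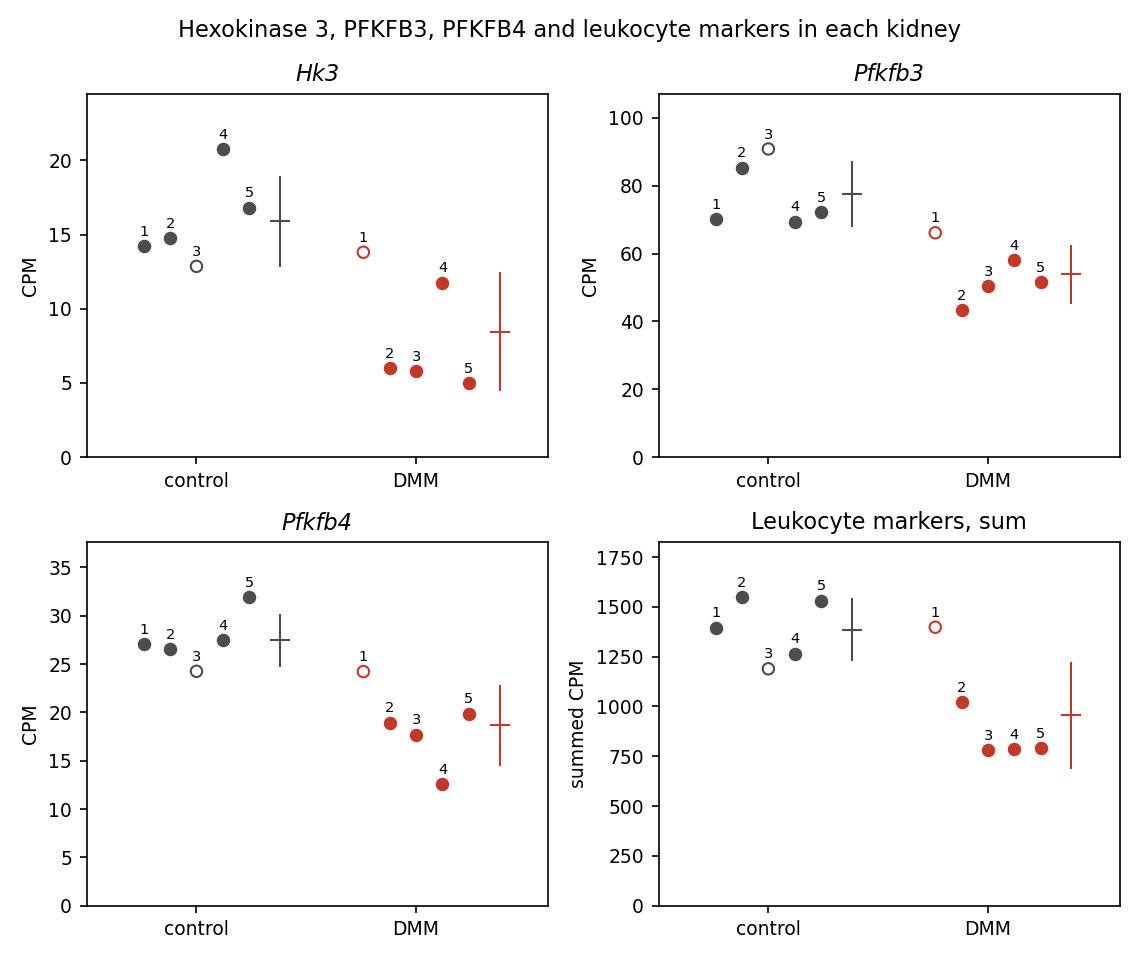
CPM of Hk3, Pfkfb3, Pfkfb4 and the sum of 12 leukocyte markers in each kidney, with the replicate number beside each point and bars for the mean and SD of 5; open points mark PBS replicate 3 and DMM replicate 1. The groups do not overlap for Pfkfb3 and Pfkfb4, and for Hk3 DMM replicate 1 (13.8 CPM) lies within the PBS range.

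Sequences before the starts of the members that were lower with DMM are shown with the letters searched in them, taken from the RefSeq promoter table (GRCm38.p6), which held all 33 symbols in 51 windows. The 250 bases before each start were searched on both strands for 4 motifs. The core of the hypoxia response element is ACGTG. An E box reads CACGTG and so holds that core. Part of the site bound by HNF1 reads GTTAAT, and a site bound by HNF4 reads CAAAGTCCA. ACGTG stood in 17 of the 51 windows, beside 16.6% of all 32851 windows, and the E box in 7, beside 6.02%. The HNF1 letters stood in 3, beside 6.43%, and the HNF4 letters in 0, beside 0.384%. The window of Hk3 holds ACGTG on the reverse strand, and the Pfkfb3 window shown, which lies within the gene, holds the E box. The other Pfkfb3 window, at the start of the gene, holds ACGTG and no E box, and its match lies in the exon part that was left out. The Pfkfb4 window holds none of the 4. Capitals mark the matches, and bases within an exon of GENCODE M21 were left out. A match describes letters only, and binding was not measured. The stretches are chr13:55021386-55021635 on the minus strand for Hk3, chr2:11502102-11502340 on the minus strand for Pfkfb3, and chr9:108991652-108991777 on the plus strand for Pfkfb4.
Hk3: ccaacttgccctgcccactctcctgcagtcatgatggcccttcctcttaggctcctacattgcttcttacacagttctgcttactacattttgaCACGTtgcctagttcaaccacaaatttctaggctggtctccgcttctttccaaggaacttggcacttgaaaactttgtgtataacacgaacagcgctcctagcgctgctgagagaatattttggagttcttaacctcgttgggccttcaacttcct
Pfkfb3: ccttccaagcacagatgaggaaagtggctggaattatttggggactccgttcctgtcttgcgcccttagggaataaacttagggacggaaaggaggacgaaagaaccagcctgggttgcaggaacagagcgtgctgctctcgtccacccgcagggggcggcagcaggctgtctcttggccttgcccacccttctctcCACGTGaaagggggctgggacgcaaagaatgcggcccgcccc
Pfkfb4: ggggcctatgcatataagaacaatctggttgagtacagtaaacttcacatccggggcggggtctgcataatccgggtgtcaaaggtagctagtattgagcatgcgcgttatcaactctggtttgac

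The enzymes from aldolase to enolase serve both directions of the pathway. Aldoa had 519, 553, 642, 543 and 464 CPM in PBS and 524, 609, 774, 492 and 694 CPM in DMM replicates 1 to 5. The groups overlapped, and the log2 fold change was 0.30 over the 8 libraries (SE 0.16, adjusted p = 0.302 with edgeR) and 0.19 over all 10. With single libraries of the 8 left out it was 0.20 to 0.41, all below 1.5-fold, and the smallest adjusted p was 0.0118 with edgeR. Tpi1, which interconverts the triose phosphates, had 322, 363, 436, 322 and 304 CPM in PBS and 309, 403, 460, 335 and 456 CPM in DMM replicates. PBS replicate 3 was the highest PBS kidney and DMM replicate 1 the lowest DMM kidney, and the log2 fold change over the 8 libraries was 0.33 (SE 0.13, adjusted p = 0.189 with edgeR). Over all 10 it was 0.17. Without DMM replicate 4 it was 0.42 (adjusted p = 0.0047 with edgeR), below 1.5-fold, and the adjusted p reached 0.649 in other settings. Pgk1, which makes ATP from bisphosphoglycerate, had 248, 281, 358, 295 and 223 CPM in PBS and 241, 295, 327, 344 and 342 CPM in DMM replicates. Over the 8 libraries the lowest DMM kidney, at 295.35 CPM, was nearly level with the highest PBS kidney, at 295.31 CPM. The log2 fold change was 0.32 (SE 0.13, adjusted p = 0.176 with edgeR), whereas over all 10 the groups overlapped and it was 0.14 (SE 0.15).

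Phosphoglycerate mutases move the phosphate group of phosphoglycerate. Pgam1, the main isozyme, had 150, 176, 194, 185 and 152 CPM in PBS and 157, 189, 186, 156 and 190 CPM in DMM replicates, with log2 fold changes of 0.12 over the 8 libraries and 0.04 over all 10, the latter -0.04 with scaling by totals alone. Pgam2, the muscle isozyme, had 11.4, 7.64, 19.99, 5.74 and 6.75 CPM in PBS and 11.8, 17.2, 18.6, 8.62 and 18.1 CPM in DMM replicates. PBS replicate 3 had the highest of all 10 values, and the groups overlapped with DMM replicate 4 among the PBS kidneys. The log2 fold change of Pgam2 over the 8 libraries was 0.99 (SE 0.30, adjusted p = 0.0839 with edgeR), and over all 10 it was 0.53. It passed with DESeq2 (adjusted p = 0.0152) and without DMM replicate 4 (1.19, adjusted p = 0.00344 with edgeR), and the other settings gave adjusted p up to 0.231. The single tested skeletal muscle marker, Mylpf, was not called, and the 7 muscle markers summed to 0.301 to 2.59 CPM per library, with Myh4 and Tnnc2 at 0 in every library.

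Eno1, the ubiquitous enolase, made up 94.97% to 97.92% of enolase transcripts per kilobase. It had 508, 581, 618, 628 and 496 CPM in PBS and 485, 545, 665, 713 and 637 CPM in DMM replicates, with overlapping groups, and its log2 fold change was 0.21 for the 8 (SE 0.13, adjusted p = 0.417 with edgeR) and 0.10 for all 10. Gapdh had 5.87, 5.76, 3.82, 6.53 and 3.35 CPM in PBS and 2.96, 3.84, 4.36, 3.32 and 7.16 CPM in DMM replicates. DMM replicate 5 was the highest and DMM replicate 1 the lowest, with a log2 fold change of -0.21 over the 8 (SE 0.30, adjusted p = 0.741 with edgeR) and -0.23 over all 10. The pseudogenes Gapdh-ps14 and Gapdh-ps15 had at most 1 and 2 counts per library. Only pseudogenes named after the gene were looked up, and reads that Gapdh shares with others were not examined. The part of pseudogenes in its low count was not tested, and its fold change is not interpreted. Bpgm, which makes the red cell regulator 2,3-bisphosphoglycerate, stayed between 35.1 and 47.4 CPM. The remaining members of these steps, Aldoc, Eno2 and Eno3 and the second Aldoa row, had log2 fold changes between -0.53 and 0.47 over the 8 libraries, and none passed.

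Pyruvate kinase forms pyruvate and ATP at the end of glycolysis. Pkm, the form of most non-hepatic tissues, had 501, 546, 484, 767 and 415 CPM in PBS and 490, 418, 474, 571 and 465 CPM in DMM replicates. PBS replicate 4 was the highest, and the log2 fold change over the 8 libraries was -0.21 (SE 0.20, adjusted p = 0.581 with edgeR), against -0.17 over all 10. Pklr, the liver and red cell form that the proximal tubule also makes, had 38.4 to 69.5 CPM in every library and log2 fold changes of 0.13 over all 10 and 0.00 over the 8. Pkm made up 79.4% to 91.3% of pyruvate kinase transcripts per kilobase, with the highest share in PBS replicate 4. Ldhb had 1080, 1233, 1146, 953 and 1229 CPM in PBS and 1265, 1509, 1411, 778 and 1281 CPM in DMM replicates. DMM replicate 4 was the lowest of all 10 and the other DMM kidneys were the highest, and the log2 fold change was 0.15 over the 8 libraries (SE 0.21, adjusted p = 0.731 with edgeR) and 0.15 over all 10 (SE 0.17, adjusted p = 0.742). Ldha had 519 to 622 CPM in PBS and 535 to 633 CPM in DMM kidneys, and log2 fold changes of 0.08 over the 8 and 0.02 over all 10. Ldhb made up 73.1% to 84.7% of lactate dehydrogenase transcripts per kilobase, with deposited lengths of 1570 bp for Ldhb and 3310 bp for Ldha.

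G6pc, Fbp1 and Khk, genes of the proximal tubule, had the largest positive log2 fold changes of the members over the 8 libraries, and edgeR called none of them. Fbp1, which removes a phosphate from fructose bisphosphate, had 99.6, 96.9, 295, 30.9 and 68.4 CPM in PBS and 58.9, 189, 247, 59.6 and 343 CPM in DMM replicates 1 to 5. PBS replicate 3 lay with DMM replicates 2, 3 and 5, and DMM replicates 1 and 4 lay with the remaining PBS kidneys. The log2 fold change was 1.50 over the 8 libraries (SE 0.52, adjusted p = 0.127 with edgeR) and 0.60 over all 10 (SE 0.62, adjusted p = 0.703). DESeq2 called it over the 8 (adjusted p = 0.0227), and without DMM replicate 4 it was 1.81 with edgeR (adjusted p = 0.0056), whereas the adjusted p reached 0.285 in other settings.

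G6pc, the phosphatase that releases free glucose, had 22.3, 24.7, 99.4, 5.20 and 19.7 CPM in PBS and 17.6, 75.3, 64.1, 21.6 and 103 CPM in DMM replicates. The same PBS kidney and the same 3 DMM kidneys were high. Its mean was 18.0 ± 8.75 CPM in PBS and 66.0 ± 33.8 CPM in DMM kidneys over the 8 libraries (SD, n = 4 and 4), which gave 1.88 on the log2 scale (SE 0.54, adjusted p = 0.0738 with edgeR). With all 10 it was 0.72 (SE 0.70, adjusted p = 0.686 with edgeR). It passed with DESeq2 (adjusted p = 0.0039) and with edgeR without DMM replicate 4, at 2.17 (adjusted p = 0.00413), and the other settings gave adjusted p up to 0.181. G6pc3, the ubiquitous isozyme, had 41.9, 42.7, 47.0, 42.7 and 41.7 CPM in PBS and 44.6, 47.3, 54.2, 21.8 and 47.6 CPM in DMM replicates. All DMM kidneys but replicate 4 lay above 4 of the PBS kidneys, and the log2 fold change of 0.02 over the 8 libraries was -0.07 with scaling by totals alone. With single libraries of the 8 left out it was -0.12 to 0.24, all below 1.5-fold, and the smallest adjusted p was 0.0279 with edgeR.

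Khk, which phosphorylates fructose, had 80.4, 79.8, 170, 38.02 and 57.5 CPM in PBS and 58.2, 151, 172, 46.2 and 210 CPM in DMM replicates. Again PBS replicate 3 and DMM replicates 2, 3 and 5 were high. The log2 fold change was 1.182 over the 8 libraries (SE 0.42, adjusted p = 0.143 with edgeR) and 0.58 over all 10 (SE 0.48, adjusted p = 0.626). With DESeq2 it was called (adjusted p = 0.0402), as it was without DMM replicate 4 (1.48, adjusted p = 0.00218 with edgeR), and the adjusted p reached 0.342 in other settings. Fbp2, the muscle bisphosphatase, is named after its values were seen. Its log2 fold change was 0.51 over the 8 libraries (adjusted p = 0.557 with edgeR) and 0.83 without DMM replicate 4 (adjusted p = 0.0143), which had 4.04 CPM against 8.12 to 22.5 in the others. The remaining settings gave adjusted p up to 0.991 for Fbp2, and its log2 fold change over all 10 was 0.46. Tigar, a phosphatase that lowers fructose 2,6-bisphosphate, had 12.9, 12.6, 10.1, 11.5 and 13.3 CPM in PBS and 11.9, 11.7, 10.4, 9.71 and 9.29 CPM in DMM replicates. The groups overlapped, and the log2 fold change was -0.29 over the 8 libraries (SE 0.14, adjusted p = 0.260 with edgeR) and -0.19 over all 10.

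Of the 12 proximal tubule markers whose sums are given above, 5 were called higher over the 8 libraries, with a median log2 fold change of 1.52, and 0 over all 10, with a median of 0.72 and 3 at an unadjusted p under 0.05. The 5 were Lrp2, Cubn, Slc13a3, Slc4a4 and Ggt1. DESeq2 called 11 over the 8. The number was 12 without DMM replicate 4, 3 without PBS replicate 1 or DMM replicate 3, 2 without DMM replicate 5 and 1 without PBS replicate 5. Their part in the levels of Fbp1, G6pc and Khk was not tested.

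**Figure D4:**
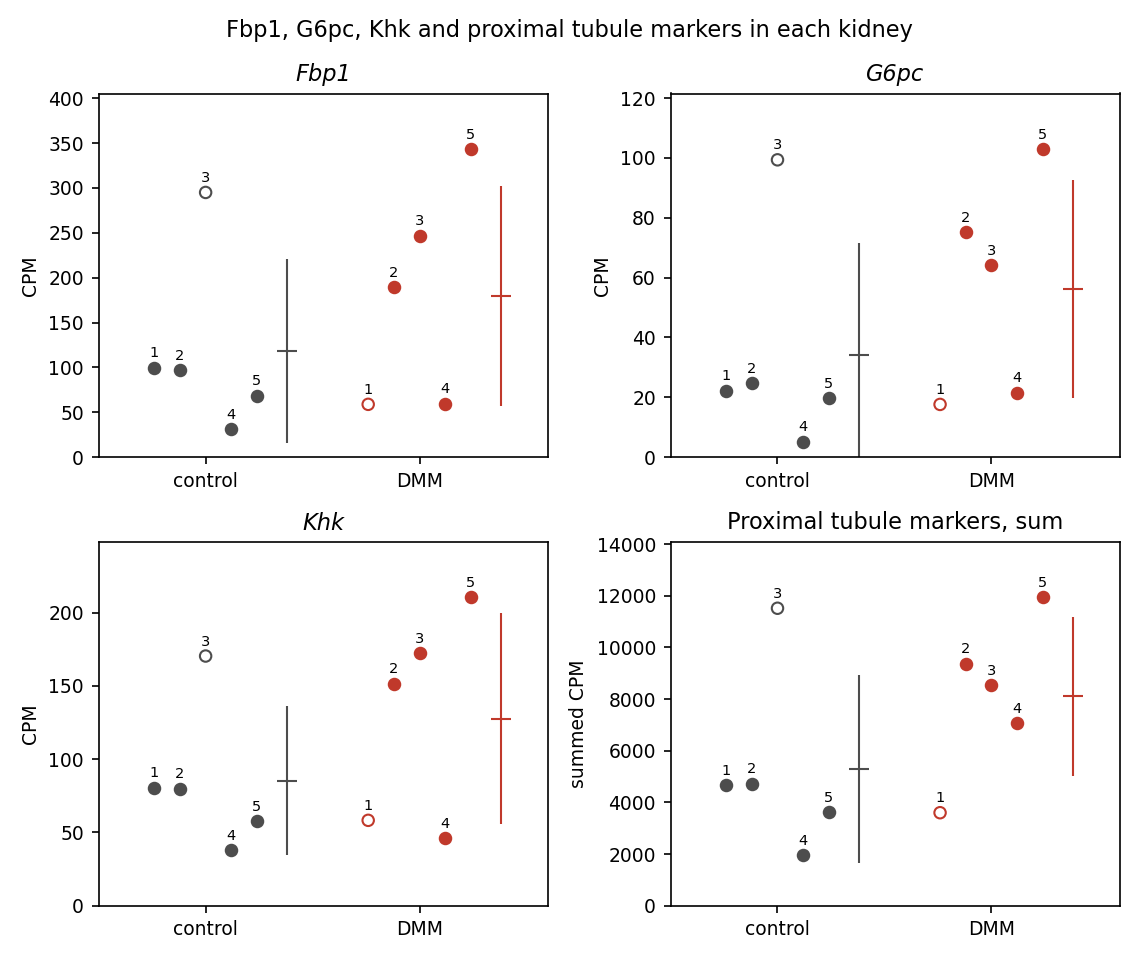
CPM of Fbp1, G6pc, Khk and the sum of 12 proximal tubule markers in each kidney, with the replicate number beside each point and bars for the mean and SD of 5; open points mark PBS replicate 3 and DMM replicate 1. PBS replicate 3 and DMM replicates 2, 3 and 5 are high in all 4 panels.

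To set a member with a large difference beside its promoter letters, the G6pc window is shown up to the first annotated exon, at chr11:101367466-101367560 on the plus strand of GRCm38.p6 (RefSeq). GTTAAT, in capitals, stood in the windows of G6pc, Khk and Pfkfb1. The Fbp1 window, at chr13:62888283-62888532 on the minus strand, held none of the 4 motifs.
G6pc: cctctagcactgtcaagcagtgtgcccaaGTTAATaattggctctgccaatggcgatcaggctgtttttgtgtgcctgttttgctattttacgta
Fbp1: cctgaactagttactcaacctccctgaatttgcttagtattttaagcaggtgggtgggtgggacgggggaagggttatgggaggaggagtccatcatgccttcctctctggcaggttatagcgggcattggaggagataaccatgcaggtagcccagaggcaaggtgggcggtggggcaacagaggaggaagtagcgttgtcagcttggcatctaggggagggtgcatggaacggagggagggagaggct

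Other cell types were followed by their markers. Fibroblast markers summed to 6330, 9489, 4955, 14079 and 8895 CPM in PBS and 10980, 5097, 3515, 7027 and 4030 CPM in DMM replicates 1 to 5, and Col3a1 was the most abundant. PBS replicate 3 was the lowest PBS kidney and DMM replicate 1 the highest DMM kidney. Of 7 markers, 2 were called lower over the 8 libraries, Col1a2 and Postn, with a median of -1.01, and 0 over all 10, with a median of -0.53 and 0 at an unadjusted p under 0.05. Without PBS replicate 2, 4 or 5 or DMM replicate 3 or 5 the number was 1, and without DMM replicate 4 it was 4, while the 10 libraries without DMM replicate 1 gave 1. Loop, distal and collecting duct markers summed to 3158, 2638, 4391, 1998 and 1747 CPM in PBS and 2743, 4242, 4932, 1965 and 5273 CPM in DMM replicates, with Umod the most abundant and Pvalb, the untested marker of the 10, at 0 in 6 libraries. Of the 9 tested, 4 were called higher over the 8, namely Slc12a1, Slc12a3, Calb1 and Slc4a1, and 0 over all 10, with 1 at an unadjusted p under 0.05. The number was 8 without DMM replicate 4, 1 without PBS replicate 2 or 5 or DMM replicate 5, and 0 without PBS replicate 4 or DMM replicate 3.

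Podocyte markers summed to 600 to 927 CPM and endothelial markers to 385 to 514 CPM, with Podxl and Pecam1 the most abundant. In either list 0 of 5 were called by edgeR or DESeq2 and 0 passed an unadjusted p under 0.05, over the 8 and over all 10 libraries. Red cell markers, led by Hbb-bs, summed to 179, 261, 265, 200 and 185 CPM in PBS and 321, 248, 632, 822 and 313 CPM in DMM replicates. DMM replicates 3 and 4 were the highest. By edgeR 0 of 6 were called in either fit, 5 were higher at an unadjusted p under 0.05 in both, and DESeq2 called 5 over the 8. Without DMM replicate 2 or 4, edgeR called 5 of them over the remaining 7 libraries. Adipose markers, of which 0 of 5 were tested, summed to 27.7 CPM in PBS replicate 4, 6.41 in PBS replicate 2 and at most 2.003 elsewhere. Their part in the members' levels was not tested.

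Further genes of glucose handling were taken from 5 lists. Among 20 sugar and monocarboxylate transporters, 5 rose over the 8 libraries and 0 fell, with a median log2 fold change of 0.62, and DESeq2 called 11 higher and 1 lower. This compares with 0 called over all 10, with a median of 0.39, where 2, Slc2a2 and Mpc1, were higher and 0 lower at an unadjusted p under 0.05 and DESeq2 called 0. Slc5a12, a lactate carrier of the early proximal tubule, had 50.3, 43.4, 132, 17.6 and 30.7 CPM in PBS and 23.2, 115, 160, 130 and 209 CPM in DMM replicates. It was high in PBS replicate 3 and in all DMM kidneys but replicate 1, and rose by 2.11 on the log2 scale over the 8 libraries (SE 0.33, adjusted p = 0.00812 with edgeR). Slc5a8, a lactate and pyruvate carrier of the later proximal tubule, had 67.0, 54.1, 134, 41.6 and 58.9 CPM in PBS and 54.2, 106, 135, 160 and 149 CPM in DMM replicates. It followed the same division of libraries and rose by 1.31 (SE 0.18, adjusted p = 0.00495 with edgeR). Slc2a2, the basolateral glucose exit, rose by 0.97 (adjusted p = 0.0152), and Mpc1, a subunit of the mitochondrial pyruvate carrier, rose by 0.75 (adjusted p = 0.0130, both with edgeR). Slc16a7, a monocarboxylate transporter named after its values were seen, rose by 1.04 (adjusted p = 0.0497 with edgeR). For Slc5a12, Slc5a8, Slc2a2, Mpc1 and Slc16a7 the log2 fold changes over all 10 libraries were 1.22, 0.76, 0.65, 0.49 and 0.61, and the smallest adjusted p among them was 0.408. The calls of Slc5a12 and Slc5a8 held without any of the 8 libraries. That of Slc2a2 was lost without DMM replicate 5 (adjusted p = 0.0526 with edgeR), that of Mpc1 without DMM replicate 5 (0.0526) or PBS replicate 4 (0.0516), and that of Slc16a7 without PBS replicates 1, 2, 4 or 5 (0.0636, 0.134, 0.153 and 0.152) or DMM replicates 3 or 5 (0.0824 and 0.0894). Slc16a7 was also lost with RLE size factors (adjusted p = 0.0502 with edgeR) and with scaling by totals alone (0.0508). The number of transporters called was 12 without DMM replicate 4, 3 without PBS replicate 4 and 2 without DMM replicate 5.

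Among 11 genes of gluconeogenic entry, fructose and polyol metabolism, 10 were tested, 4 rose and 1 fell over the 8 libraries, and the median log2 fold change was 1.09, while DESeq2 called 7 higher and 1 lower. Over all 10 libraries 0 were called by edgeR or DESeq2, with a median of 0.58 and 0 higher and 1 lower at an unadjusted p under 0.05. Gk, the glycerol kinase, had 111, 97.9, 249, 61.6 and 79.7 CPM in PBS and 84.3, 206, 250, 244 and 309 CPM in DMM replicates. It was again high in PBS replicate 3 and low in DMM replicate 1, and rose by 1.53 (SE 0.20, adjusted p = 0.00405 with edgeR). Sord, which turns sorbitol into fructose, rose by 1.58 (adjusted p = 0.0268), and Glyctk, the glycerate kinase of fructose breakdown, by 0.94 (adjusted p = 0.0191, both with edgeR). Pck1, the cytosolic PEP carboxykinase that starts gluconeogenesis, is named after its values were seen and rose by 2.11 (adjusted p = 0.0495 with edgeR). Akr1b3, the aldose reductase that makes sorbitol from glucose, had 171, 191, 196, 172 and 154 CPM in PBS and 157, 99.0, 106, 106 and 118 CPM in DMM replicates. DMM replicate 1 overlapped PBS replicate 5, and all other DMM kidneys were lower than every PBS kidney. It fell by 0.68 on the log2 scale over the 8 libraries (SE 0.11, adjusted p = 0.00957 with edgeR), and over 10 without DMM replicate 1 by 0.72 (adjusted p = 0.00513).

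The log2 fold changes of Gk, Sord, Glyctk, Pck1 and Akr1b3 over all 10 libraries were 0.87, 0.82, 0.49, 1.19 and -0.59, and Akr1b3 was the gene of this list with an unadjusted p under 0.05. Calls of Gk and Akr1b3 held without any of the 8 libraries. Sord was lost without PBS replicates 2, 4 or 5 (adjusted p of 0.0634, 0.0585 and 0.0990 with edgeR) or DMM replicates 3 or 5 (0.0720 and 0.0741). Glyctk was lost without PBS replicates 1, 4 or 5 (adjusted p of 0.0505, 0.0588 and 0.0728 with edgeR) or DMM replicates 3 or 5 (0.0635 and 0.0648). Pck1 was lost without PBS replicates 1, 2, 4 or 5 (adjusted p of 0.133, 0.0900, 0.135 and 0.122 with edgeR) or DMM replicates 2, 3 or 5 (0.050007, 0.128 and 0.128). With scaling by totals alone Pck1 (adjusted p = 0.0637 with edgeR) and Glyctk (0.0504) were lost as well, and 2 genes of the list were called higher. The number called higher in the list was 8 without DMM replicate 4, 2 without PBS replicate 1 or 2, and 1 without PBS replicate 4 or 5 or DMM replicate 3 or 5.

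In the pentose phosphate list 0 of 10 genes were called by edgeR in either fit, with a median log2 fold change of 0.01 over the 8 libraries, 2 higher and 1 lower at an unadjusted p under 0.05, and 1, Shpk, called by DESeq2. Over all 10 libraries 1, Prps1, was higher at an unadjusted p under 0.05. Prps1, which makes phosphoribosyl pyrophosphate, and Shpk, the sedoheptulose kinase, had the smallest p, with log2 fold changes of 0.33 and 0.58 and adjusted p of 0.106 and 0.108 with edgeR, against 0.24 and 0.32 over all 10. Without DMM replicate 4 edgeR called 1 gene of this list, Shpk. Among 16 glycogen genes 0 were called by edgeR, 6 were higher and 0 lower at an unadjusted p under 0.05 over the 8 libraries, and DESeq2 called 3. Over all 10 libraries 3 were higher at an unadjusted p under 0.05. Gbe1, the branching enzyme, had 23.2 to 33.0 CPM in PBS and 27.1 to 40.04 CPM in DMM kidneys and a log2 fold change of 0.51 over the 8 (adjusted p = 0.0331 with edgeR), below 1.5-fold, and 0.35 over all 10. Gys2, the liver glycogen synthase, had 0.372 to 2.69 CPM in PBS and 0.801 to 4.10 CPM in DMM kidneys, and its log2 fold change was 1.66 (adjusted p = 0.0703 with edgeR), with 2.34 (0.0179) without PBS replicate 1 and 1.56 (0.0358) without DMM replicate 4. The numbers called were then 1 and 2, and the adjusted p of Gys2 reached 0.197 in other settings. For all 10 it had a log2 fold change of 1.05.

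Regulators of glucose metabolism made up the last list, with 13 of 14 tested. The untested gene had at most 3 counts per library. Over the 8 libraries 2 rose and 0 fell, the median log2 fold change was 0.56, and DESeq2 called 3 higher. With all 10 libraries the median was 0.41 and 0 were called by edgeR or DESeq2, with 2 higher at an unadjusted p under 0.05, Ppargc1a and Pdk4, the latter named after its values were seen. Hnf4a, a transcription factor of the proximal tubule and liver, had 242, 261, 406, 168 and 275 CPM in PBS and 215, 409, 447, 383 and 500 CPM in DMM replicates. PBS replicate 3 was the highest PBS kidney and DMM replicate 1 lay among the PBS kidneys, and Hnf4a rose by 0.88 over the 8 libraries (SE 0.17, adjusted p = 0.0194 with edgeR). Ppargc1a, a coactivator of mitochondrial and gluconeogenic genes, rose by 1.09 (SE 0.27, adjusted p = 0.0450 with edgeR), with 134 CPM in DMM replicate 4 and 30.6 to 73.2 elsewhere. Over all 10 the log2 fold changes of Hnf4a and Ppargc1a were 0.53 and 0.77. The call of Hnf4a was lost without PBS replicates 1 or 2 (adjusted p of 0.0597 and 0.0512 with edgeR) or DMM replicates 3 or 5 (0.0614 and 0.0642). That of Ppargc1a was lost without PBS replicates 1, 2, 4 or 5 (adjusted p of 0.0675, 0.126, 0.140 and 0.124 with edgeR) or DMM replicates 3 or 5 (0.0881 and 0.0808). Without DMM replicate 4, 5 regulators were called, without PBS replicate 4 or 5 the number was 1, and without PBS replicate 1 or 2 or DMM replicate 3 or 5 it was 0.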

How the data were processed

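Bulk RNA-seq libraries of obstructed kidneys from 5 PBS (control) and 5 DMM mice were used. The counts per gene are those deposited by the authors, who aligned reads with HISAT2 2.0.5 (mm10). The counting tool, annotation release and strand setting were not given. FPKM values were deposited by the authors and were not used. The signal columns, deposited by the authors as group means of counts divided by DESeq2 size factors, served only to find which libraries enter them. They are weighted sums of 8 count columns, with a weight of 0 for control replicate 3 and DMM replicate 1. Gene length in base pairs was taken as deposited, and its source was not stated. Total counts per library were between 15722527 and 19475833.

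Counts of all genes were filtered with filterByExpr, scaled by TMM and tested with the quasi-likelihood F test of edgeR 4.0.16 (R 4.3.3), with group as the only factor, over 10 libraries and over the 8. A call needed a fold change above 1.5 and a p under 0.05 after Benjamini-Hochberg adjustment over all tested genes. Both tools were tested on simulated data with known changes. There the share of false calls was near the adjusted p threshold with edgeR and above it with DESeq2. The simulated counts used edgeR's own dispersion estimates and held no libraries that stood apart from their group. The simulation therefore cannot say which tool is nearer the truth on these data. Alternatives were DESeq2 1.42.0, RLE size factors, library size alone, all genes with a count, at least 1 CPM in 4 libraries, no fold threshold, the replicate number as a factor, and each library left out. Tables were made with Python 3.11.15 and pandas 2.3.3.

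Named genes are members called in either fit, the 12 members of smallest unadjusted p over the 8 libraries and the most abundant member per kilobase at each step. From the lists of transporters, gluconeogenic entry, fructose and polyol genes, pentose phosphate genes, glycogen genes and regulators, up to 4 called genes of smallest p were named, or 2 where none was called. Marker lists covered proximal tubule, loop to collecting duct, podocytes, leukocytes, fibroblasts, endothelium, red cells, skeletal muscle and fat. Members and lists were chosen with earlier results of these data known. Promoter windows are the 250 bases before RefSeq gene starts.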

Additional observations from a re-analysis of the deposited data

Results flagged for a closer look

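In groups of 5 libraries, a value was listed when its gap to the nearest other value was more than 0.71 of the group's range (Dixon's limit). Of 68 groups examined, 7 had such a value. Chance gives about 1 in 20 groups (5 percent) where groups are independent and unselected. Many of the genes were named for a small p over the 8 libraries, which leave out PBS replicate 3. That share is therefore no fair comparison, and no conclusion is drawn from it. PBS replicate 3 held 6 of the 7 values. It had 295 CPM of Fbp1, against 30.9 to 99.6 in the other PBS kidneys, and 99.4 CPM of G6pc, against 5.20 to 24.7. G6pc3 was at 47.0 CPM there, against 41.7 to 42.7, and Gk at 249 CPM, against 61.6 to 111. The lactate carriers Slc5a8, at 134 CPM against 41.6 to 67.0, and Slc5a12, at 132 CPM against 17.6 to 50.3, were high in the same kidney. The remaining value was Pfkl in PBS replicate 5, at 77.9 CPM against 116 to 127 in the other PBS kidneys. The causes were not tested.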

How the results depend on the processing

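Over all 10 libraries, edgeR called 0 genes and 0 members, with 727 genes higher and 1071 lower at an unadjusted p under 0.05, and DESeq2 called 9 genes higher and 32 lower. Leaving out single libraries gave 0 to 50 genes higher, 0 to 436 lower and 0 to 3 members lower, the upper ends without DMM replicate 1. Over the 8 libraries DESeq2 called 769 genes higher and 894 lower and 4 members higher, library size alone gave 276 genes higher, and testing all genes with a count left 1 member lower. Leaving out single libraries of the 8 gave 131 to 1129 genes higher, 276 to 1281 lower, 0 to 5 members higher and 0 to 3 lower, the upper ends without DMM replicate 4. The cause was not tested.

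With the replicate number as a factor (replicate block), edgeR called 0 genes higher and 0 lower over the 8 libraries and 0 members lower. Among the 8, only replicates 2, 4 and 5 had a library in both groups. That fit thus compared fewer libraries with more factors, and its lack of calls cannot be set against the main fit. The labels do not state that libraries of the same number were paired. Once group means were removed, libraries of the same number had correlations of -0.06, 0.0792, 0.341, 0.124 and -0.223 for replicates 1 to 5. The closest DMM library had the same number for PBS replicate 2 alone.

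Several log2 fold changes near 0 changed sign. Pgam1 over 10 libraries was -0.042 with library size alone and -0.0086 to 0.084 with single libraries left out. G6pc3 over 10 libraries was 0.0049 with DESeq2 and 0.0049 with RLE size factors, and -0.10 to 0.17 with single libraries left out. Over the 8 libraries G6pc3 was -0.072 with library size alone, -0.20 with the replicate block and -0.12 to 0.24 with single libraries left out, and the median of the members was -0.011 with library size alone. The cause was not tested.

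For named genes over 10 libraries, direction and side of the threshold held in 235 values under alternatives other than leaving out a library and in 332 with a library left out. A further 4 with a library left out passed the threshold. Over the 8 libraries the numbers were 213 and 223, with 9 and 8 that passed the threshold and 14 and 38 that no longer did.

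Some members had few counts per library, namely 82 to 391 for Hk3, 48 to 123 for Gapdh, 17 to 59 for Pfkfb1 and 5 to 19 for the second Aldoa row. How far counting limited their precision was not tested. Several members overlap other genes, namely Hk1, Hk3, Gpi1, Pfkm, Pfkp, Pfkfb1, Pfkfb2, Aldoa, Tpi1, Gapdh and Pklr on the opposite strand and Pkm with AC160637.1 on the same strand by 3887 bases. Without the strand setting, reads of these overlaps cannot be told apart. Among the pseudogenes named after a member, Ldha-ps2 had 15 to 82 counts and Pgam1-ps2 33 to 58, and pseudogenes with other names were not examined. With 5 mice per group or 4, differences smaller than the spread between mice could not be called.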
